A study of Mus musculus with 4 samples.

Results

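RIG-I is a cytosolic RNA helicase that recognises viral RNA. Its gene, Ddx58, is described here in the mouse lymph node together with 4 other genes known as interferon-induced or antiviral: Trim14, Tdrd7, Samd9l and Irf5. The 5 genes were taken by symbol from the 56748 gene rows of the count tables. They were chosen by their read counts in these same libraries, which earlier results had shown to be higher after treatment, so that difference is given below as a description with no test.

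The tissue was lymph node. All 4 mice had experimental autoimmune encephalomyelitis (EAE), in which immunity raised against myelin inflames brain and spinal cord, a model of multiple sclerosis. The BrQ group, replicates 1 and 3, received BrQ, which the study's title gives as 2-bromo-1,4-naphthalenedione, and the Vehicle group, also replicates 1 and 3, received the vehicle and was the control. The labels give no strain, age, sex, dose or time of treatment, and no mouse without EAE was included. Each mouse gave 1 library of total RNA. The study's title concerns T cell expansion and differentiation in EAE, and the comparison of BrQ with Vehicle asks which transcripts differ with treatment.

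Cells that detect viral RNA through RIG-I signal through the mitochondrial adaptor MAVS, and the kinases and interferon regulatory factors downstream switch on type I interferon genes. Secreted interferon acts through its receptor and STAT and IRF proteins on the interferon-stimulated response element, a short promoter motif, and induces a large set of antiviral genes. Ddx58 is itself one of these, so the sensor is amplified by the response it starts. Trim14 is an adaptor at mitochondria that supports RIG-I signalling. Tdrd7 is a Tudor domain protein, best known from germ cells and the lens and also described as an interferon-induced antiviral factor. Samd9l is a cytosolic factor that restricts poxviruses and limits cell growth. Irf5 is a transcription factor, prominent in myeloid and B cells, that drives inflammatory cytokine and interferon genes.

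Promoter sequence was read for the 5 genes to show where the motif of the interferon response lies in them. RefSeq windows on GRCm38.p6, from 250 bases before to 50 bases after a start site, held 4 of the 5 genes in 6 windows, of which 3 belong to Tdrd7. Trim14 was not in the table. The core of the interferon-stimulated response element was searched on both strands as GAAANNGAAA, where N is any base. It occurred in 1131 of 32851 windows (3.44%) and in at least 1 window of 3.99% of 27025 genes. Among the 4 genes it occurred in Ddx58 and in 1 window of Tdrd7.

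In Ddx58 the match was GAAATCGAAA on the strand opposite to the gene, starting 3 bases after the start site, and it continued as GAAATCGAAACT. That longer form, which follows the core with CT, was in 0.271% of all windows. In Tdrd7 the match was GAAAGAGAAA on the gene's own strand at position -191 from an internal start site at chr4:45972297. Samd9l and Irf5 held no match. With the last A left out, Samd9l also held one, starting 39 bases after its start site, and 8.56% of all windows did. The stretches before the start sites are shown for Ddx58, for the Tdrd7 window with the match and for Samd9l, the most abundant of the 5. Each ends where the gene model's exon begins and is written 5′ to 3′ on the gene's strand, with the match in capitals.
Ddx58, minus strand, chr4:40239829-40240075: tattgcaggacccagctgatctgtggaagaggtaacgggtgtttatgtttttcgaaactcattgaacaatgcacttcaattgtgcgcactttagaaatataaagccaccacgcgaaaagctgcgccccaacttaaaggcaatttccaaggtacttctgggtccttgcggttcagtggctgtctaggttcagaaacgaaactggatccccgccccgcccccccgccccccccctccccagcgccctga
Tdrd7, plus strand, chr4:45972047-45972232: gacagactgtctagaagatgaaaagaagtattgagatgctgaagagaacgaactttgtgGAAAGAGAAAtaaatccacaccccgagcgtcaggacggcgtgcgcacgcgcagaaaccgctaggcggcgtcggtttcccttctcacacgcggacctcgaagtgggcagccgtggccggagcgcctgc
Samd9l, minus strand, chr6:3399573-3399821: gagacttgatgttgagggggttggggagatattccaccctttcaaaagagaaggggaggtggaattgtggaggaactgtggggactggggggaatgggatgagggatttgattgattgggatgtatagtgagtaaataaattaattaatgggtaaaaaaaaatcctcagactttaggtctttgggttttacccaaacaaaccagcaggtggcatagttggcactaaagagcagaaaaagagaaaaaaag
The stretch of Ddx58 has no capitals because its match lies just after the start site. A match describes letters in the window and not a site in use, and no match says only that these letters are absent from it.

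The libraries were of similar depth, with 6813832 to 7989226 reads in gene rows, and 86.8% to 88.8% of all reads lay in no gene interval. Each of the 5 genes had 362 reads or more in every library, so counting error at the lowest count was 5.26% for Trim14 and at most 4.06% for the others. Levels are given as CPM, counts set to a common library size with TMM factors (0.818 to 1.14), with the SD over 2 mice. With 2 mice per group, an SD or SE rests on few values. Names in these tables were not taken to meet their reads everywhere, so other interferon genes were not read, and the neighbours of the 5 genes were examined first.

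Among listed neighbours of the 5 genes, names and reads appeared to meet, judged by lists written with earlier results of these data known. All 34 neighbours listed as used in most cell types had a mean of at least 100 reads per library. These means ran from 467 for Bet1, a vesicle transport protein, to 11092 for Anp32b, a histone chaperone. Of 17 listed neighbours known mainly from other tissues, none reached that mean, and 8 had no read in any library, among them Calcr, the calcitonin receptor, and Lep, the adipocyte hormone leptin. The most abundant of these 17 was Hepacam2, next to Samd9l, with a mean of 66.5 reads. The choice of the lists can shape this split, so it is a description and not a test. Chchd3, a mitochondrial gene at the end of the region around Irf5 that was not listed and is described below, had 6 or fewer reads. Names and reads were therefore not shown to meet over that whole region. Ddx58, with 2317 reads or more per library, lies between Aco1, an iron-regulated aconitase, with 557 to 722 reads and Topors, a ubiquitin ligase, with 1187 to 1408. Lingo2, a neuronal gene 3 positions from Ddx58, had none.

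**Figure D1:**
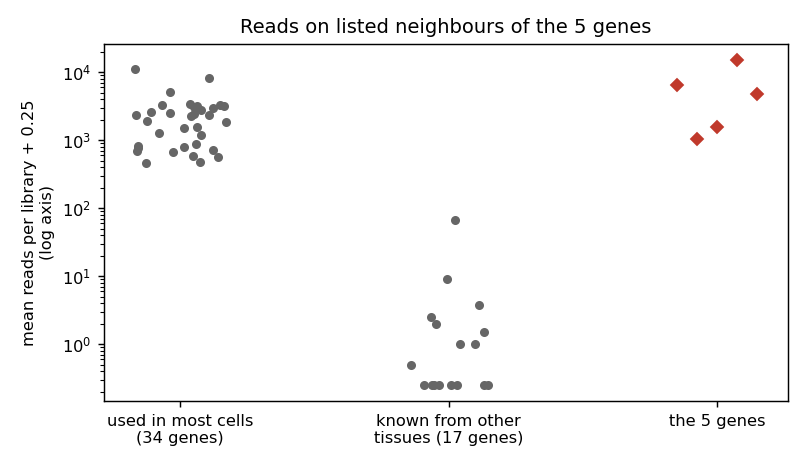
Mean reads per library (log axis, 0.25 added), each point 1 gene. Shown are 34 neighbours listed as used in most cells, 17 listed as known from other tissues, and the 5 genes. The broadly used neighbours all lie at 467 or above, those of other tissues at 66.5 or below, and the 5 genes between 1062 (Trim14) and 15097 (Samd9l).

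Ddx58 lies on the minus strand at chr4:40203773-40239828 (GRCm38, ENSMUSG00000040296), and none of its 7050 exonic bases is shared with another gene. It had 8574 and 13195 reads in BrQ replicates 1 and 3, and 2317 and 2449 in Vehicle replicates 1 and 3. In CPM this was 1080 and 1698 against 336 and 375. Both BrQ libraries were far above both Vehicle libraries, and the lower BrQ mouse was 2.88-fold above the higher Vehicle mouse. The means were 1389 ± 437 and 355.2 ± 27.6 CPM (SD, n = 2 each), a 3.91-fold difference, and the log2 fold change was 1.97 ± 0.20 (SE). In whole lymph node, more cells of a type and more RNA per cell cannot be told apart. Of the 5 genes the sensor showed the largest difference, except where Vehicle replicate 1 was left out (1.86 against 1.94 for Trim14) or each gene was set against its own neighbours.

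Trim14, the mitochondrial adaptor, lies on the minus strand at chr4:46493781-46536141 (ENSMUSG00000039853). It was the least abundant of the 5, with 1375 and 2022 reads in the BrQ mice against 490 and 362 in Vehicle. These were 173 and 260 CPM in BrQ and 71.0 and 55.4 CPM in Vehicle, so the groups did not overlap. The means were 216.7 ± 61.5 and 63.2 ± 11.0 CPM (SD, n = 2 each), a 3.43-fold difference with a log2 fold change of 1.78 ± 0.22 (SE). Of its 4338 exonic bases, 38.0% are shared with genes on the opposite strand, and 1356 of them with Nans, a sialic acid synthase. The strand setting of the counting is not given in the sources used here. Whether reads in the shared bases were given to either gene or left out as ambiguous is therefore not known. Nans itself went the other way, with 1901 to 2040 reads in BrQ against 2539 to 2810 in Vehicle.

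Tdrd7 lies on the plus strand at chr4:45965334-46034761 (ENSMUSG00000035517), 10 protein-coding genes from Trim14, and shares none of its 3958 exonic bases. Its reads numbered 1996 and 3005 in BrQ against 606 and 728 in Vehicle. In CPM it stood at 251 and 387 in BrQ and at 87.8 and 111 in Vehicle. The lower BrQ mouse was 2.26-fold above the higher Vehicle mouse. The means were 319.0 ± 95.6 and 99.6 ± 16.7 CPM (SD, n = 2 each), 3.20-fold apart, with a log2 fold change of 1.68 ± 0.21 (SE).

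Samd9l, the poxvirus restriction factor, lies on the minus strand at chr6:3372257-3399572 (ENSMUSG00000047735), and none of its 5427 exonic bases is shared. It was the most abundant of the 5, with 18055 and 25330 reads in BrQ against 7579 and 9424 in Vehicle. These were 2274 and 3259 CPM in BrQ and 1098 and 1442 CPM in Vehicle. Again the groups did not overlap, but the gap was narrower than for the 3 genes on chromosome 4: the lower BrQ mouse was 1.58-fold above the higher Vehicle mouse. The means were 2766 ± 696 and 1270 ± 243 CPM (SD, n = 2 each), 2.18-fold apart, with a log2 fold change of 1.12 ± 0.19 (SE).

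Irf5, the transcription factor, lies on the plus strand at chr6:29526625-29541871 (ENSMUSG00000029771). It had 5775 and 5796 reads in BrQ against 3941 and 3603 in Vehicle. These were 727 and 746 CPM in BrQ and 571 and 551 CPM in Vehicle, a small difference with close agreement inside each group. The means were 736.5 ± 13.0 and 561.1 ± 13.9 CPM (SD, n = 2 each), 1.31-fold apart, with a log2 fold change of 0.39 ± 0.12 (SE). Of its 2905 exonic bases, 14.1% are shared with Tnpo3, a nuclear import receptor on the opposite strand. Tnpo3 stood at 310.4 ± 0.187 CPM (SD, n = 2) in BrQ and at 305.8 ± 11.6 CPM in Vehicle, and its log2 fold change was 0.02 ± 0.13 (SE; edgeR quasi-likelihood, adjusted p = 0.903).

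**Figure D2:**
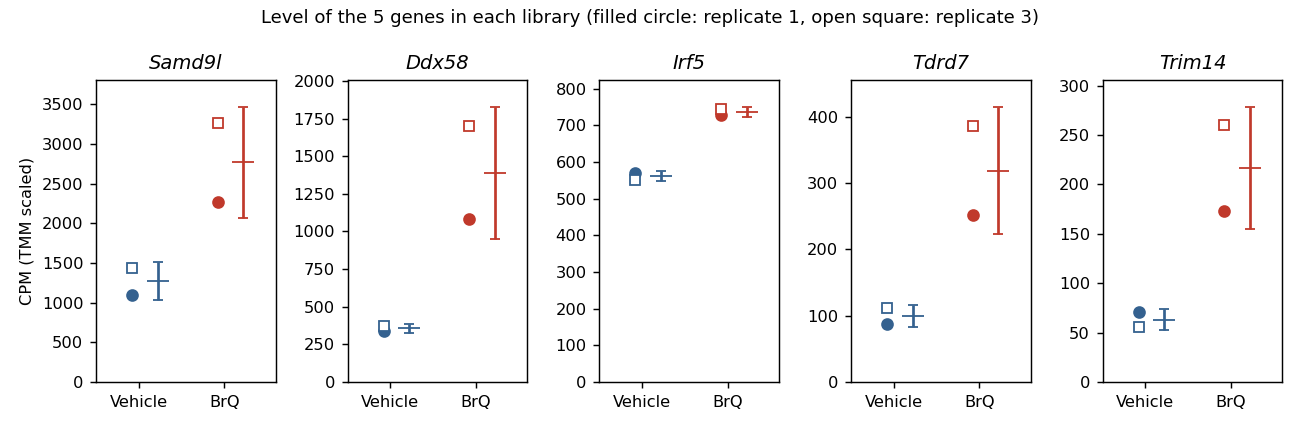
CPM of each gene in the 2 Vehicle and 2 BrQ libraries (filled circle replicate 1, open square replicate 3; horizontal lines are means and bars SD), on a linear axis from 0 that differs between panels. In each panel both BrQ points lie above both Vehicle points, and the BrQ mice are far apart for each gene except Irf5.

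By edgeR's quasi-likelihood test, all 5 genes were called higher in BrQ at an adjusted p under 0.05. The choice of the genes fixes that count, so nothing is read from it. Among all 10223 features tested, 45.7% were called in either direction and 23.6% were called higher. In 39.9% of features both BrQ libraries lay above both Vehicle libraries, as they did in the 5 genes. A log2 fold change of at least 1, which Ddx58, Trim14, Tdrd7 and Samd9l had, was found in 20.7% of features, and one at least as large as that of Irf5 in 38.5%. Only 5047 features had a mean of at least 100 reads, which all 5 genes had. These shares are therefore not matched to the 5 genes in depth. The median log2 fold change was 1.68 over the 5 genes and 0.05 over all features tested.

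Per kilobase of exon, the order of the 5 genes was the same in both groups. Samd9l was highest, with 509.7 ± 128 CPM per kilobase (SD, n = 2) in BrQ against 234.0 ± 44.8 in Vehicle. Irf5 followed with 253.5 ± 4.47 and 193.1 ± 4.78, and then Ddx58 with 197.0 ± 62.0 and 50.4 ± 3.92. Tdrd7 had 80.6 ± 24.2 and 25.2 ± 4.22, and Trim14 had 49.9 ± 14.2 and 14.6 ± 2.54. Some neighbours in this order were not separated by more than their spread. In BrQ the means of Irf5 and Ddx58 differed by less than the SD of Ddx58, and in Vehicle those of Samd9l and Irf5 by less than the SD of Samd9l. In Vehicle, Ddx58 was well below Irf5 in both mice, at 47.6 and 53.2 against 197 and 190 CPM per kilobase.

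The ratio of 2 genes inside a library does not depend on how libraries are scaled. The ratios among the 5 genes are given as a description, since they come from the same reads by which the genes were chosen. Reads of Ddx58 over those of Irf5, the sensor against the transcription factor, were 1.48 and 2.28 in BrQ and 0.588 and 0.680 in Vehicle. Ddx58 thus had more reads than Irf5 in both BrQ mice and fewer in both Vehicle mice. Ddx58 over Samd9l was 0.475 and 0.521 in BrQ and 0.306 and 0.260 in Vehicle. Against Tdrd7 the range was narrow, at 4.30 and 4.39 in BrQ and 3.82 and 3.36 in Vehicle. Ratios that overlapped between the groups were Ddx58 over Trim14, at 6.24 and 6.53 against 4.73 and 6.77, and Trim14 over Tdrd7, 0.689 and 0.673 against 0.809 and 0.497.

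The summed reads of the 34 broadly used neighbours gave a second measure inside each library. That sum was nearly the same in the 4 libraries, from 79956 to 83232 reads. Ddx58 equalled 10.3% and 16.3% of it in BrQ and 2.87% and 3.06% in Vehicle, a 4.48-fold difference. For Trim14 the shares were 1.65% and 2.49% against 0.608% and 0.453%, or 3.91-fold. For Tdrd7 they were 2.40% and 3.71% against 0.751% and 0.911%, or 3.67-fold. Samd9l equalled 21.7% and 31.2% in BrQ and 9.40% and 11.8% in Vehicle, or 2.50-fold, and Irf5 6.94% and 7.15% against 4.89% and 4.51%, or 1.50-fold. All 5 differences were larger against these neighbours than after TMM scaling, under which the neighbours had a median log2 fold change of -0.33. Set against the broadly used neighbours of its own region alone, Ddx58 differed 3.52-fold, Trim14 4.17-fold, Tdrd7 3.92-fold, Samd9l 2.73-fold and Irf5 1.75-fold.

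After TMM scaling the genes beside the 5 were more often lower in BrQ than higher, but the split of their listed neighbours turned with library size alone. Within 25 protein-coding genes on each side lay 184 other genes, of which 120 were tested and 50 were called (41.7%), 16 of them higher (13.3%) and 34 lower. Their median log2 fold change was -0.30. The 184 include the stretch near Chchd3, where names were not shown to meet their reads. A log2 fold change of at least 1 was found in 3 of the 120 (2.50%), and one at least that of Irf5 in 17 (14.2%). In 22.5% both BrQ libraries lay above both Vehicle libraries. Among 67 listed or nearest neighbours, 7 were called higher and 19 lower after TMM scaling, against 10 and 2 with library size alone. Among all features, 2409 were called higher and 2267 lower after TMM scaling, against 3603 and 1072 with library size alone, where the median log2 fold change of all features was 0.42 in place of 0.05. Relative to that median, Ddx58 was higher by a log2 difference of 1.92 with library size alone and 1.92 after TMM scaling, and Irf5 by 0.34 and 0.34. A change of scaling moves all features by nearly the same amount. Subtracting the median takes that out, so nothing is read from the agreement.

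**Figure D3:**
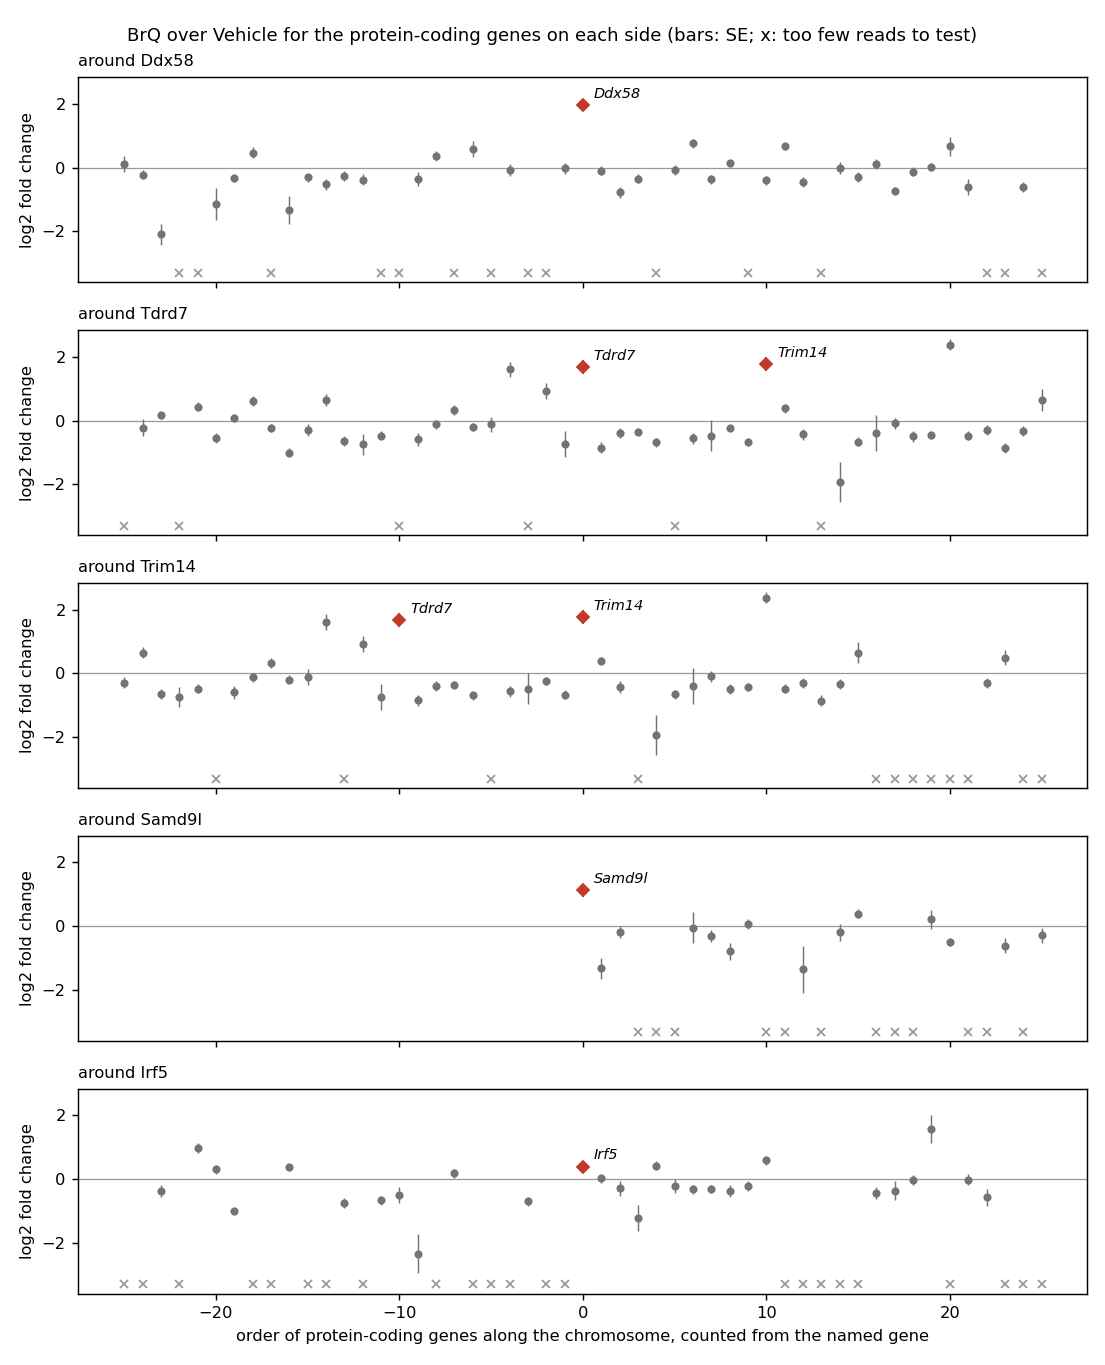
Log2 fold change, BrQ over Vehicle, of up to 25 protein-coding genes on each side of each gene in their order along the chromosome (bars SE; crosses mark genes with too few reads to test; red diamonds the 5 genes). Samd9l has no tested gene on its left because it is the first protein-coding gene of its chromosome, and most grey points lie between -1 and 1.

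The genes next to each of the 5 were read whatever their values. Among the 4 nearest on each side of Ddx58, 5 of 8 were tested and 1 was called. This was Smim27, a small membrane protein, at -0.76 ± 0.17 (log2 fold change ± SE; edgeR quasi-likelihood, adjusted p = 0.00585). The flanking Aco1 and Topors were at -0.02 ± 0.18 and -0.09 ± 0.15 (adjusted p = 0.932 and 0.635). Among the nearest 8 of Trim14, 1 was called higher and 3 lower. Nans was lower at -0.67 ± 0.13 (adjusted p = 0.00308), and Coro2a, an actin-binding coronin on the other side, was higher at 0.39 ± 0.14 (adjusted p = 0.0430). The other lower genes were Trmo at -0.55 ± 0.17 (adjusted p = 0.0258) and Anks6, with 3 to 17 reads, at -1.92 ± 0.63 (adjusted p = 0.0316).

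Among the nearest 8 of Tdrd7, 2 were called higher and 3 lower. Aldh1b1, a mitochondrial aldehyde dehydrogenase, was at 1.61 ± 0.24 (adjusted p = 0.000708), and Stra6l, a retinol transporter family gene, at 0.93 ± 0.24 (adjusted p = 0.0120). On the other side Tmod1, an actin filament capping protein, was lower at -0.85 ± 0.18 (adjusted p = 0.00429), as were Xpa, a DNA repair factor, at -0.69 ± 0.15 (adjusted p = 0.00489) and Ncbp1, a cap-binding protein, at -0.36 ± 0.13 (adjusted p = 0.0409). Samd9l has genes on 1 side only. Hepacam2 was lower at -1.32 ± 0.33 with 33 to 97 reads (adjusted p = 0.00948), and Vps50, an endosomal transport subunit, was at -0.18 ± 0.18 (adjusted p = 0.433). Among the nearest 8 of Irf5, 1 was called higher and 2 lower. Ahcyl2 was higher at 0.42 ± 0.14 (adjusted p = 0.0358). Atp6v1f, a subunit of the vacuolar proton pump, was lower at -0.69 ± 0.14 (adjusted p = 0.00316), and Smo, the Hedgehog signal transducer, at -1.21 ± 0.41 (adjusted p = 0.0357). Kcp, directly beside Irf5, had 1 to 11 reads and was not tested. The calls of Coro2a and Ahcyl2 held under 8 of 16 other ways of processing each, that of Stra6l under 14 and that of Aldh1b1 under 16. Among the genes called lower, the call of Ncbp1 held under 6, that of Anks6 under 7, and those of Trmo and Smo under 8. Those of Smim27, Hepacam2 and Xpa held under 13, and those of Nans, Tmod1 and Atp6v1f under 14. With library size alone Ncbp1 was at 0.008.

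The 2 mice of the BrQ group were not alike in 4 of the 5 genes. CPM in BrQ replicate 3 over BrQ replicate 1 was 1.57 for Ddx58, 1.50 for Trim14, 1.54 for Tdrd7 and 1.43 for Samd9l, but 1.03 for Irf5. A ratio of at least 1.25 was found in 23.0% of all features tested and in 6.67% of the 120 vicinity genes, whose median ratio was 0.963. Between the Vehicle mice the 5 genes did not move together. Vehicle replicate 3 over replicate 1 was 1.12 for Ddx58, 0.780 for Trim14, 1.27 for Tdrd7, 1.31 for Samd9l and 0.966 for Irf5. Here a ratio of at least 1.25 was found in 20% of the 120 vicinity genes. It was found in 22.6% of the 10171 features with reads in Vehicle replicate 1. The 4 genes that differed most between the groups were also the 4 with a ratio above 1.25 between the BrQ mice. BrQ replicate 3 enters both measures and the genes were chosen by these libraries, so nothing is read from that. Both BrQ mice lay above both Vehicle mice in each of these 4 genes, as in 39.9% of all features tested. The choice of the genes favours that as well, so nothing is read from it.

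**Figure D4:**
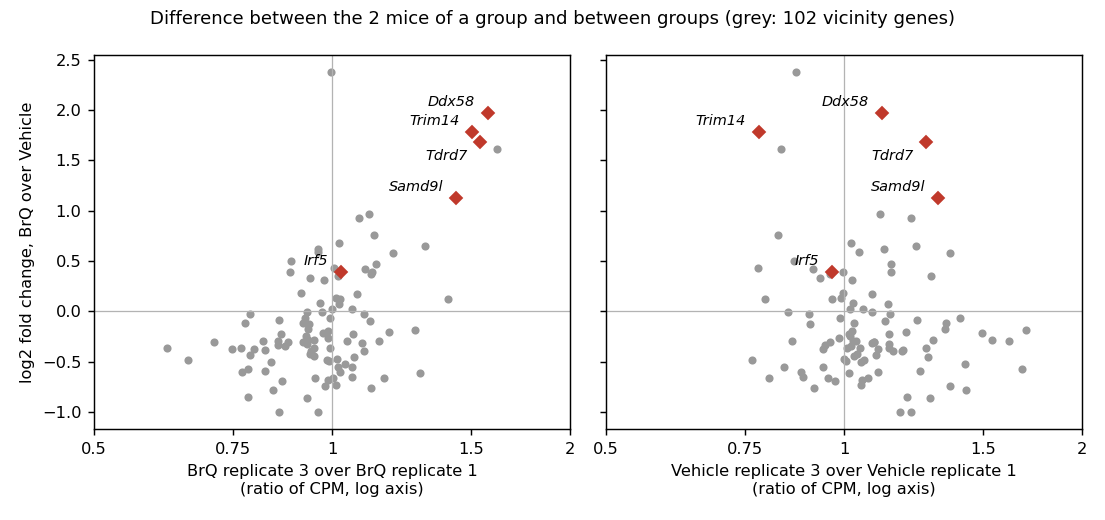
Log2 fold change, BrQ over Vehicle, against the ratio of CPM between the 2 BrQ mice (left) and the 2 Vehicle mice (right, log axes), for the 5 genes (red diamonds) and 102 vicinity genes with a mean of at least 100 reads (grey). On the left Ddx58, Trim14, Tdrd7 and Samd9l lie at ratios of 1.43 to 1.57, and Irf5 at 1.03 among the grey points. The grey point at the top is Nr4a3, a nuclear receptor named after its value was seen.

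The genes nearby whose pattern over the 4 libraries was most like each of the 5 were found by the distance between centred log2 CPM values, over 127 genes with a mean of at least 1 CPM. For Ddx58 they were Tdrd7 (distance 0.306), Tsga13 (0.402) and Trim14 (0.407). For Trim14 they were Aldh1b1 (0.206), Tsga13 (0.385) and Ddx58, and for Tdrd7 they were Tsga13 (0.224), Ddx58 and Aldh1b1 (0.439). The choice of the 5 genes by their difference in these libraries favours such closeness, so nothing is read from their standing near each other. Aldh1b1 had 654 and 1034 reads in BrQ against 265 and 209 in Vehicle. Tsga13, a testis gene, had 41 and 63 reads in BrQ and 15 in each Vehicle library. Of the genes near it looked at after values were seen, Copg2, a coat protein of Golgi transport directly beside it, had 518 to 668 reads, and Chchd3, a mitochondrial gene at the end of the region, had 6 or fewer. Where along this stretch names and reads meet was not shown.

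Samd9l and Irf5 had other closest genes. For Samd9l they were Zfp800, a zinc finger gene (0.342), Stra6l (0.348) and Zbtb5, a zinc finger repressor (0.480). For Irf5 they were Snd1, a Tudor domain nuclease (0.092), Ahcyl2 (0.096) and Gcc1, a Golgi protein (0.109). Snd1 was at 0.38 ± 0.13 (log2 fold change ± SE; edgeR quasi-likelihood, adjusted p = 0.0402) and Gcc1 at 0.32 ± 0.14 (adjusted p = 0.0896). The call of Snd1 held under 7 of 16 other ways of processing. None of the closest genes of Irf5 was among those of the other 4.

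Little of the rest of the pathway could be read. The lists of RIG-I and interferon signalling genes (25) and of interferon-induced genes (30) hold 52 genes together, and 46 lie outside the examined regions and were not read. Beside the 5 genes only Ifnk, the type I interferon kappa gene near Ddx58, lies inside. It had 4 reads in BrQ replicate 1, 1 in Vehicle replicate 3 and none in the other libraries, too few to test. No other ligand, receptor, kinase or STAT gene of the pathway was read, so the 5 genes cannot be set against them.

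The levels of rows named for cell type markers are given beside the 5 genes. Of these markers only Pax5 and Col1a2 lie in the regions examined. For the others, Lyn, Tfec, Cd72, Il7r, Tox, Sit1, Osmr, Lifr, Ccl19 and Ccl21a, names were not shown here to meet their reads, so each value is that of the row with the name. The rows listed as myeloid were Lyn, a Src family kinase of both myeloid and B cells, and Tfec, a macrophage transcription factor. Together they summed to 1179 and 1299 CPM in BrQ and 655 and 735 in Vehicle. Most of that sum was Lyn, with 1072 and 1206 CPM in BrQ and 613 and 688 in Vehicle. Both were higher, Lyn at 0.81 ± 0.13 and Tfec at 1.15 ± 0.17 (log2 fold change ± SE; edgeR quasi-likelihood, adjusted p = 0.00125 and 0.000691). The B cell markers Pax5 and Cd72 summed to 2068 and 2119 CPM in BrQ and 3245 and 3381 in Vehicle. Of these Cd72 was lower at -1.01 ± 0.12 (adjusted p = 0.000285), while Pax5 was at -0.22 ± 0.12 (adjusted p = 0.155).

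The T cell markers Il7r, Tox and Sit1 summed to 677 and 753 CPM in BrQ and 1002 and 1067 in Vehicle. Il7r and Sit1 were lower, but Tox, a regulator of T cell exhaustion, was higher at 0.72 ± 0.17 (adjusted p = 0.00682). The stromal markers Col1a2, Osmr and Lifr summed to 21.6 to 30.2 CPM in BrQ and 32.4 to 39.6 in Vehicle. The lymph node chemokine Ccl21a had no read in any library and Ccl19 had 0 to 27. The 13 rows named for mitochondrial protein genes took 15.2% and 11.7% of gene reads in BrQ against 20.1% and 29.4% in Vehicle. They lie outside the regions examined, so their names were not shown here to meet their reads. The part of any marker or mitochondrial row in the difference of the 5 genes was not tested. With the mitochondrial rows left out of the fit, Ddx58 was at 1.96, Trim14 at 1.78, Tdrd7 at 1.68, Samd9l at 1.12 and Irf5 at 0.39 (log2 fold change).

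The size of the difference depended on the scaling and on BrQ replicate 3. Over 16 other ways of processing, the log2 fold change ranged from 1.62 to 2.34 for Ddx58, from 1.46 to 2.14 for Trim14, from 1.35 to 2.06 for Tdrd7 and from 0.85 to 1.51 for Samd9l. In each of these 4 genes the lowest value came without BrQ replicate 3 and the highest with library size alone. Irf5 ranged from 0.35, with upper quartile factors, to 0.76, with library size alone. Ddx58, Trim14, Tdrd7 and Samd9l were called in 16 of 16, and Irf5 in 11 of 16: it lost its call in each fit with 1 of the 4 mice left out and in 1 other. The share of all features called higher, 23.6% in the main comparison, ranged from 6.21% with no low count filter to 35.2% with library size alone.

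**Figure D5:**
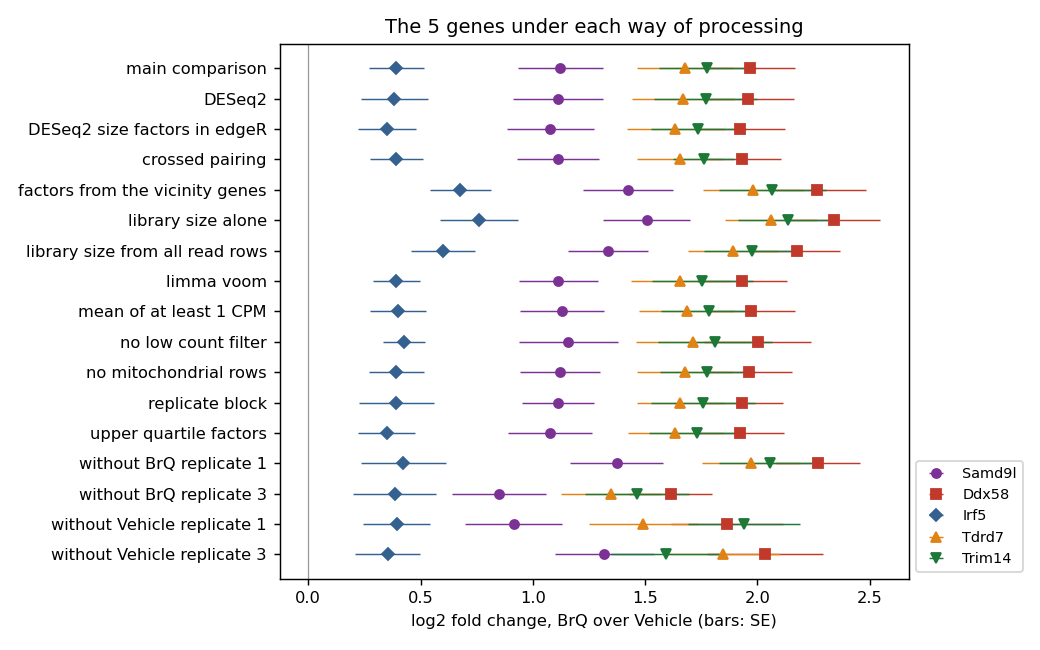
Log2 fold change, BrQ over Vehicle, of the 5 genes (bars SE) in the main comparison and under 16 other ways of processing, 1 per row. All points lie above 0, each gene is highest with library size alone, and Irf5 is lowest of the 5 in every row.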

How the data were processed

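Per the labels' protocols, lymph node RNA of 4 mice went through paired-end sequencing. For each mouse the authors deposited raw counts of reads per gene. Trim Galore 0.6.2, HISAT2 2.1.0, HTSeq 0.11.2 and the mm10 genome are named in the submitters' processing notes; neither the annotation release nor the strand setting is given in the sources used here. Rows naming no gene, 87.0% to 89.0% of all reads, entered neither library sizes nor tests. Positions and exons came from GENCODE M21, which held 52125 of the 56748 gene IDs, and promoters from RefSeq.

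Sample titles gave the groups and the replicate numbers. All rows naming a gene were fitted with edgeR 4.0.16 (quasi-likelihood, filterByExpr, TMM) in R 4.3.3 on the 4 libraries. Group was the only term, p-values were adjusted by Benjamini-Hochberg over 10223 features, and the threshold was 0.05. CPM used the TMM factors. The fit was tested on simulated data. With 2 mice per group, p-values reflect only how much these mice vary. Within each group, neither library was a copy of the other. The chi-square between the libraries of a group, divided by its degrees of freedom, was 12.4 (BrQ) and 26.6 (Vehicle). Libraries of different groups were not compared in this way.

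The 5 genes and all lists were chosen with earlier results of these data known. Named genes are the 5, the listed neighbours and markers, the 4 nearest protein-coding genes on each side and the 3 most similar genes; others are marked in the text. Alternatives were other scalings and low count filters, the replicate block, each mouse left out, DESeq2 1.42.0 and limma voom (limma 3.58.1). Factors from the 25 protein-coding genes on each side, mitochondrial rows left out, a crossed pairing and the shorter motif were added after seeing the data.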

Additional observations from a re-analysis of the deposited data

Results flagged for a closer look

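Reads in no gene interval, which no comparison here uses, took a mean of 88.7% of all reads in the BrQ libraries and 87.3% in the Vehicle libraries, and both BrQ libraries were above both Vehicle libraries.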

How the results depend on the processing

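How many of all features kept direction and call under every alternative was not counted. Having chosen the 5 genes by these libraries favours keeping both, so nothing is read from their doing so. The 5 genes kept their direction under all 16 alternatives, and Ddx58, Trim14, Tdrd7 and Samd9l their call. Their median log2 fold change, 1.68 in the main comparison, was 2.06 with library size alone and 1.35 to 1.97 with 1 mouse left out. Relative to the broadly used neighbours the median log2 ratio, 1.88, ranged from 1.53 without BrQ replicate 3 to 2.16 without BrQ replicate 1. Features called, 4676, fell to 2481 with no low count filter, with 2031 (without BrQ replicate 3) to 4379 (without Vehicle replicate 1) when 1 mouse was left out. Neighbours called, 26, were 15 with factors from the vicinity genes, 12 with library size alone, 11 with no low count filter, and 5 (without BrQ replicate 3) to 22 (without Vehicle replicate 1) with 1 mouse left out. Calls among all features split into 3060 higher and 1587 lower when all read rows set the library size, and into 3190 and 1314 with factors from the vicinity genes, where the median of all features was 0.25 and 0.33. The causes were not tested.

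The labels do not say that replicate numbers pair the mice, and the difference between replicates 1 and 3 correlated at -0.12 between the groups, across genes. With the replicate block, the median of the 5 genes was 1.66, Irf5 was not called, 17 neighbours and 4190 features were called. A crossed pairing, added after seeing the data, called 5284 features. With 1 mouse left out, the lone mouse of its group is assumed to vary like those of the other. Trim14, with 362 reads at its lowest, had the least depth of the 5.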

Other observations

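Among the 34 broadly used neighbours of the 5 genes, 18 were called. Dnaja1, a DNAJ cochaperone of Hsp70 near Ddx58, was higher in BrQ with 10461 and 11564 reads against 6263 and 4898 in Vehicle, a log2 fold change of 0.76 ± 0.14 (SE; edgeR quasi-likelihood, adjusted p = 0.00233). Chmp5, an ESCRT subunit that sorts membrane proteins for degradation, was higher at 0.67 ± 0.14 (adjusted p = 0.00340). Arf5, a small GTPase of Golgi transport near Irf5, was lower at 479.9 ± 14.3 CPM against 960.8 ± 110 in Vehicle (SD, n = 2 each; adjusted p = 0.000467 by edgeR). Bag1, another cochaperone of Hsp70 near Ddx58, was lower at -0.39 ± 0.14 (adjusted p = 0.0435), and so was Sec61b, a subunit of the protein channel of the endoplasmic reticulum, at -0.44 ± 0.13 (adjusted p = 0.0186). Dnaja1, Chmp5 and Arf5 kept direction and call under all 16 alternatives, while the calls of Bag1 and Sec61b were kept in 7 and 10.

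Impdh1, an enzyme of guanine nucleotide synthesis near Irf5, was lower at -0.66 ± 0.15 (edgeR adjusted p = 0.00599). Calls were kept in 13 of 16 alternatives for Xpa, 12 for Impdh1 and 14 for Atp6v1f, and the sign in all. Of the 34 neighbours, 4 were called higher and 14 lower, against 7 and 1 with library size alone.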
